A study of Mus musculus with 14 samples.

Results

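The oesophagus library of a set of 14 mouse tissue libraries was described across all miRNA names and set against the other 13 libraries. Its column was chosen by its label, so the members are 1 library of 14. Small RNA came from C57BL/6J mice, an inbred laboratory strain, and the RNA of several animals was pooled into 1 library for each tissue. The other libraries were labelled heart, lung and spleen, stomach, small intestine and colon, brain and cerebellum, ovary and uterus, and kidney, pancreas and liver. The labels name no treatment or transgene, and give no age or sex. They give 5 mice for the harvest and 10 for the pool, and which holds is not settled. There are no replicates, so no difference below has a replicate check, no test was run, and intervals are 95% intervals that cover counting error only.

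miRNAs are short RNAs that pair with messenger RNAs through their seed, bases 2 to 8 of the mature strand, and lower the output of those messages. The mouse oesophagus is a tube with a wall of striated muscle and a lining of stratified squamous epithelium. A small family of miRNAs known as myomiRs is made in striated muscle, some of them from introns of myosin genes. miR-203 and miR-205 are known from stratified epithelia such as skin, where miR-203 is known to restrain the stem cell factor p63.

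The strands that carry the muscle and squamous results are shown first, read from RefSeq tables of GRCm38.p6, with the seed in capitals. The deposited names give no sequence, and the arm was taken from the older naming, in which the unmarked name is the more abundant arm. miR-1 and miR-133a are named only.
miR-206: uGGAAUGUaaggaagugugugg
miR-133b: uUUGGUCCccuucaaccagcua
miR-208a-3p: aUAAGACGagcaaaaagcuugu
miR-208b: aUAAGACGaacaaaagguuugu
miR-499: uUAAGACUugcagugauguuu
miR-203: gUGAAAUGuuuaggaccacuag
miR-205: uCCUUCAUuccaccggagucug
miR-208a-3p and miR-208b have the same seed. The miR-206 strand lies at chr1:20679055-20679076 and the miR-133b strand at chr1:20682834-20682855, both on the plus strand and both in exons of the long noncoding gene Gm28653, with 3686 bases between their hairpins. The intron of Myh6 holds miR-208a-3p, that of Myh7 holds miR-208b and that of Myh7b holds miR-499; the 3 genes encode myosin heavy chains. miR-203 lies at chr12:112130927-112130948 on the plus strand outside any other annotated gene, and miR-205 at chr1:193507503-193507524 on the minus strand in an exon of the long noncoding gene 4631405K08Rik.

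The values are deposited read counts, given here as reads per 1000000 (RPM) of the library's reads with miR-143 left out of the total. miR-143 held 22.9% of the oesophagus reads, against 4.01% to 98.7% in the other libraries. The oesophagus library had 5251562 reads, of which 4049213 were not miR-143, and the others had between 86545 (labelled colon) and 6502821 (kidney) such reads. In the library labelled colon 1 read is worth over 10 RPM, and a count of 0 there allows up to 34.7 RPM, against 0.741 RPM in oesophagus. The library labelled uterus held 182504 RPM of the intestinal names miR-192, miR-194 and miR-215, second to small intestine with 458769 RPM, and the library labelled colon held 1941 RPM. Of 1046 names, 569 had reads in oesophagus, 246 reached 10 RPM there, and 457 reached 10 RPM in some library and entered the comparison, 211 of them through other libraries only. The 3 marker miRNAs of the label, miR-206, miR-203 and miR-205, were each highest in the oesophagus library.

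With miR-143 left out, the most abundant name was miR-1, with 362475 RPM, or 36.2% of the reads other than miR-143. miR-378, which comes from an intron of the metabolic regulator gene Ppargc1b, followed with 237451 RPM, and miR-206 was next with 55270 RPM. let-7f had 54931 RPM, let-7c 35753 RPM, miR-203 25352 RPM and let-7a 21070 RPM. miR-21 had 19898 RPM, miR-126-3p 19041 RPM, miR-215 18309 RPM and let-7d 10777 RPM. Of these 11 names, miR-1, miR-206, miR-203 and miR-215 were called high by the rule given next, and miR-378 stood near its median of 211635 RPM.

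A name was called high where oesophagus had 10 RPM or more and at least 4 times the median of the other 13 libraries, with 1 RPM added to both, and low by the mirror rule. Of the 457 names, 66 (14.4%) were high and 16 (3.5%) were low. At 10 RPM or more, 14 names (3.06%) had their highest value in oesophagus, and 3 (0.656%) did so by 2-fold or more, namely miR-206, miR-483 and miR-205*, where a star marks the less abundant arm of a hairpin. The few reads of the library labelled colon allow it a level above that of oesophagus for miR-205*, miR-299 and miR-676* of these 14. The median name stood at 0.41 (log2) above the median of the others. The rule's edge lies between miR-125b-5p, at a ratio of 4.02, and miR-409-5p, at 3.87. Under the 4 other scalings tried, between 42 and 117 names were high and between 1 and 22 low, and with column totals that include miR-143 the counts were 97 and 1. All 66 high names stayed above the median and all 16 low names below it under them.

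**Figure D1:**
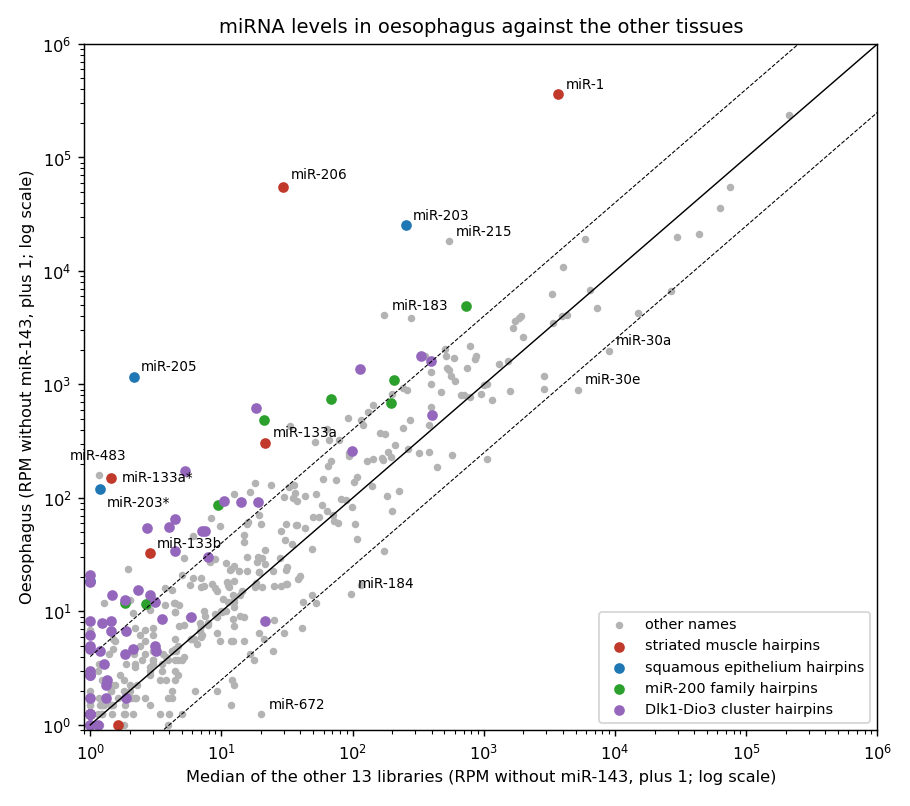
Each point is 1 of the 457 names, with its level in oesophagus on the y axis against the median of the other 13 libraries on the x axis (RPM without miR-143 plus 1, log scales). The solid line marks equality and the dashed lines 4-fold; miR-206 and miR-205 stand farthest above, and miR-672, miR-184, miR-30a and miR-30e lie below the lower dashed line.

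Of the 7 names of striated muscle 4 were high, against 14.4% of all names, and none was low. The 4 were miR-206, itself a marker of the label, miR-1, miR-133a and miR-133b. The other 3, the miRNAs of the myosin introns, were at or near 0. The 7 names summed to 41.8% (exact binomial interval 41.8–41.9%) of the reads other than miR-143 in oesophagus, against 40.7% (40.7–40.8%) in heart and 1.41% in stomach. The median member stood at 3.52 (log2) over the other tissues, beside 0.41 for all names. In bulk tissue, more cells of a type and more RNA in each cell cannot be told apart.

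miR-206, a myomiR known from skeletal and not cardiac muscle, had 55270 RPM (exact Poisson interval 55041–55500) in oesophagus. In the other libraries it ranged from 3.35 RPM in pancreas through a median of 28.6 RPM to 7482 RPM in cerebellum. Oesophagus was thus 7.39-fold (7.22–7.55) above the next library and did not overlap with any of them. The value in heart was 33.0 RPM, from 180 reads, and that in stomach 30.3 RPM, from 76 reads, so oesophagus was 1674-fold (1446–1948) above heart and 1827-fold (1459–2318) above stomach. Under the other scalings the folds of miR-206 ran from 469 to 1704 over heart and from 2299 to 4731 over stomach.

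miR-1, the myomiR shared by heart and skeletal muscle, had 362475 RPM in oesophagus, against a lowest value of 41.8 RPM in liver, a median of 3691 RPM and a highest value of 405138 RPM in heart. Only heart was above oesophagus, which stood at 0.895-fold (0.893–0.897) of it and 25.8-fold (25.6–26.1) above stomach. With median-of-ratios factors oesophagus stood at 0.251-fold of heart for miR-1, and without the 5 most abundant names at 0.321-fold. miR-133a, made from the same transcripts as miR-1, had 305 RPM in oesophagus, against a lowest value of 0 in liver, a median of 20.5 RPM and a highest of 1946 RPM in heart. It stood at 0.157-fold (0.148–0.166) of heart and 5.64-fold (4.72–6.79) above stomach. miR-133b, the neighbour of miR-206, had 31.6 RPM in oesophagus, against 147 RPM in heart, a median of 1.85 RPM and 0 in liver and spleen. Both miR-133 names were second of 14 in oesophagus and below heart beyond counting error. miR-133a and miR-133b are near-identical and may share reads.

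The miRNAs of the cardiac and slow myosin introns did not follow. miR-208a-3p had 1 read in oesophagus (0.247 RPM), against 38.7 RPM in heart. miR-208b also had 1 read, against 11.6 RPM in heart. miR-499 had 0 reads in oesophagus, which allows up to 0.741 RPM, against 130 RPM in heart from 707 reads. All 3 were highest in heart, and the striated muscle reads of oesophagus came from the other 4 names.

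Both squamous names were high, against 14.4% of all names, and both were highest in oesophagus under all 5 scalings. The squamous list holds only these 2 names, which are also markers of the label. Their count is thus a description and no separate support. miR-203 had 25352 RPM (25197–25508) in oesophagus, against a lowest value of 10.3 RPM in ovary, a median of 253 RPM and a highest value of 14748 RPM in stomach. It was 1.72-fold (1.70–1.74) above stomach, and small intestine, with 2792 RPM, came after stomach. miR-205 had 1171 RPM in oesophagus from 4743 reads, against 707 RPM in stomach, 64.5 RPM in the library labelled uterus, a median of 1.15 RPM and 0 reads in liver, pancreas, ovary, cerebellum and the library labelled colon. It was 1.66-fold (1.57–1.75) above stomach. The forestomach of the mouse carries squamous epithelium, and whether the stomach sample held it is not given in the labels.

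The less abundant arms of these hairpins were called with them. miR-203* had 120 RPM in oesophagus and 115 RPM in stomach, a fold of 1.04 whose interval (0.896–1.21) includes 1, and at most 4.85 RPM elsewhere. miR-205* had 17.5 RPM (71 reads) in oesophagus, against 3.19 RPM (8 reads) in stomach and at most 1 read in any other library. The 0 reads of the library labelled colon allow up to 34.7 RPM there, above the oesophagus level. On the muscle side, miR-133a* had 148 RPM (598 reads) in oesophagus and 77.6 RPM (423 reads) in heart, a fold of 1.90 (1.68–2.16) in the direction opposite to miR-133a. With median-of-ratios factors or without the 5 most abundant names, miR-133a* was second of 14 after heart, while miR-203* and miR-205* were first under all 5 scalings.

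**Figure D2:**
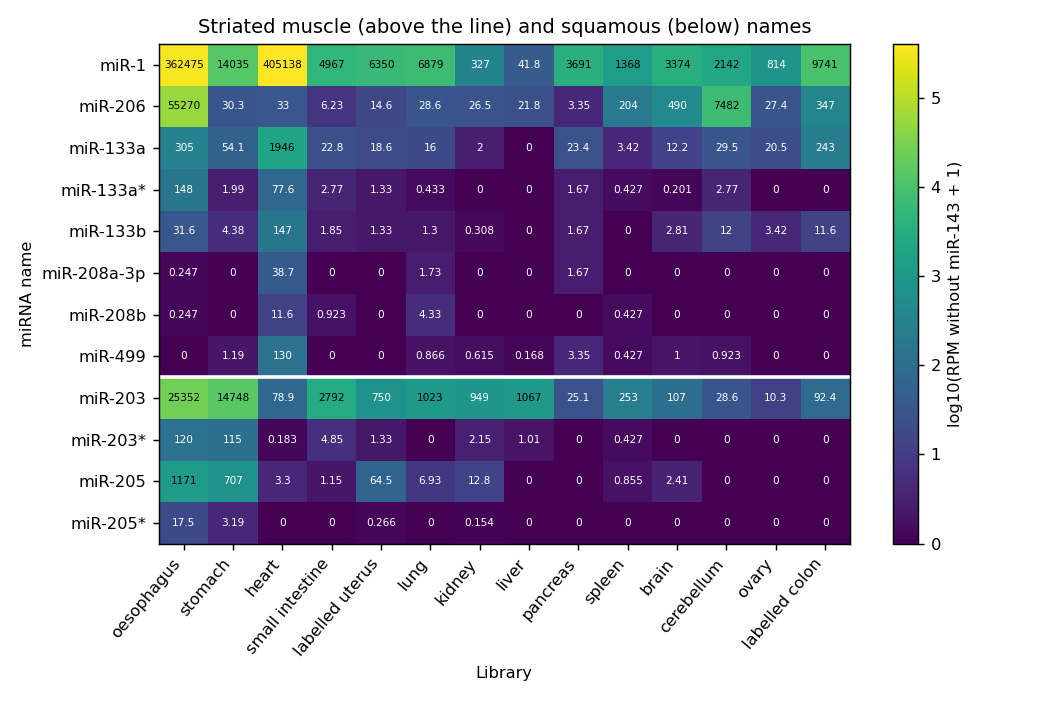
Rows are the striated muscle names (above the white line) and the squamous names (below it), columns are the 14 libraries, and each cell gives the level in RPM without miR-143, coloured by log10(RPM + 1). miR-206 fills the oesophagus cell and is low in heart, the 3 myosin-intron names fill only the heart cell, and miR-203 and miR-205 are highest in oesophagus and stomach.

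Heart, which shares striated muscle, and stomach, the neighbouring gut segment, split the high names. Against heart, 134 names (29.3%) were higher in oesophagus and 15 (3.28%) lower by 4-fold. This imbalance went with an offset of the whole profile, whose median stood at 2.09 (log2) over heart, and with median-of-ratios factors 43 were higher and 42 lower. Without the 5 most abundant names 111 were higher and 52 lower. Against stomach, 22 (4.81%) were higher and 53 (11.6%) lower, and the balance turned with the scaling. With column totals 57 were higher and 8 lower than stomach, without the muscle names 39 and 25, and with median-of-ratios factors 26 and 26. The 66 high names were split with miR-143 left out of the totals, and not under the other scalings. Of them, 50 were 4-fold above heart but not stomach, 9 above stomach but not heart, 7 above both and 0 above neither. The 9 were miR-1, miR-133a, miR-133a*, miR-133b, miR-149, miR-451, miR-486, miR-486* and miR-3107. The 7 above both were miR-206, miR-483, miR-215, miR-205*, miR-485, miR-193b* and miR-221*. Among the 50 were miR-203, miR-205, miR-203* and the miR-200 names. At that scaling, the high muscle names other than miR-206 were 4-fold above stomach only, and the squamous names other than miR-205* above heart only. The 66 names were picked as high against a median that includes both libraries. Of all names, 29.3% were 4-fold above heart and 4.81% above stomach. The split therefore describes these names and is no separate result. The split moved with the scaling. With column totals miR-203 was 4.45-fold and miR-205 4.29-fold above stomach. With median-of-ratios factors miR-100 and miR-99a, both among the 50, were 2.32-fold and 1.16-fold above heart.

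**Figure D3:**
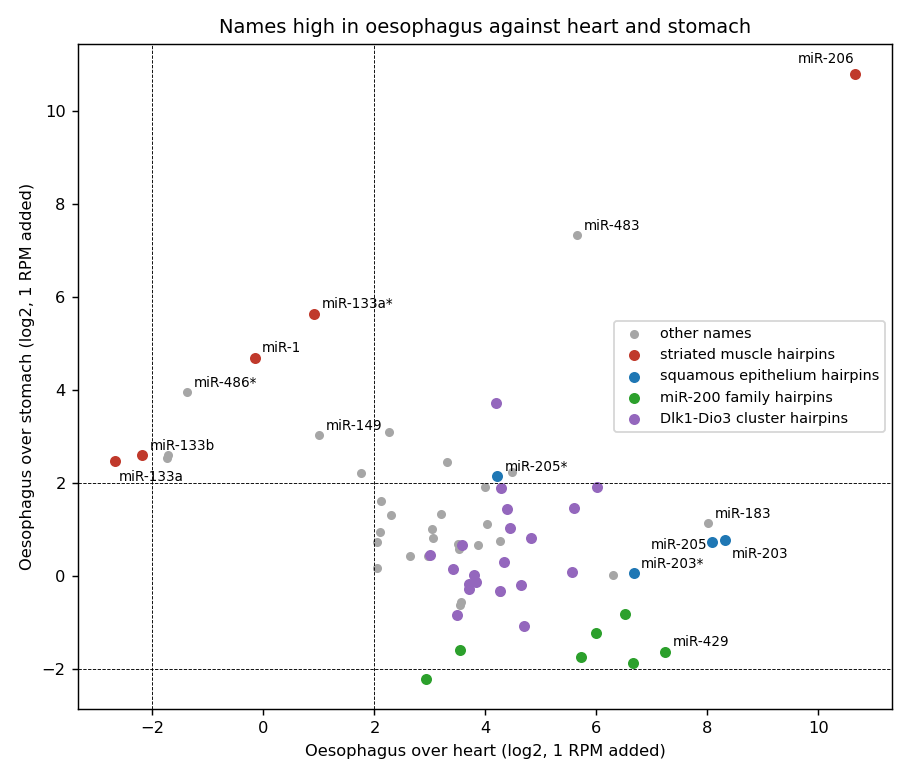
Each point is 1 of the 66 high names, placed by its log2 ratio of oesophagus over heart (x axis) and over stomach (y axis), with 1 RPM added and dashed lines at 4-fold. miR-206 lies farthest to the upper right with miR-483 next, the other striated muscle hairpins lie above the y line and left of the x line at 4-fold, the squamous hairpins to the right and above 0 on the y axis, and the miR-200 hairpins below 0.

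The names farthest below heart were miR-499, miR-208a-3p and miR-208b, followed by miR-30e, which had 900 RPM in oesophagus, against 7302 RPM in heart. Next were miR-139-3p (2 reads in oesophagus), miR-184, miR-30d, miR-542-3p, miR-133a and miR-185. The names farthest below stomach were miR-375, a miRNA of endocrine cells, with 2.72 RPM in oesophagus, against 528 RPM in stomach, and miR-184, with 13.3 RPM in oesophagus, against 744 RPM in stomach. miR-31 had 106 RPM in oesophagus and 2103 RPM in stomach, a fold of 0.0506 (0.0458–0.0559). miR-192 had 1608 RPM in oesophagus and 18135 RPM in stomach. With miR-143 left out of the totals, stomach held the most names close to oesophagus. Within 2-fold of oesophagus lay 149 names in stomach, or 50.3% of those at 10 RPM or more in either library. Small intestine had 114 (41.9%), the library labelled uterus 112 (41.5%), heart 52 (20.3%) and pancreas 18 (7.09%). The median name of oesophagus stood at -0.36 (log2) over stomach and 0.38 over small intestine, but 2.09 over heart and 3.75 over pancreas. Such an offset of the whole profile lowers the count within 2-fold. The counts were not made under the other scalings, so they do not rank likeness to oesophagus.

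Epithelial names of the miR-200 family, which hold cells in the epithelial state by acting on Zeb1 and Zeb2, are shown with their seeds because they fall into 2 seed groups.
miR-200a: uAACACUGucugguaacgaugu
miR-141: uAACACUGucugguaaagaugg
miR-200b: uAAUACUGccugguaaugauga
miR-200c: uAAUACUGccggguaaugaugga
miR-429: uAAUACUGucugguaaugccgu
All 5 stood above the median of the other tissues, and 4 of 5 were high (14.4% of all names). In oesophagus miR-200c had 4937 RPM, miR-200b 1103 RPM, miR-200a 747 RPM, miR-141 684 RPM and miR-429 482 RPM. None was highest there. Against stomach the folds ran from 0.203 (0.194–0.212) for miR-141 to 0.565 (0.554–0.576) for miR-200c, and against heart from 55.1 for miR-200b to 219 for miR-429. All 5 were above heart under all 5 scalings. All 5 were below stomach with miR-143 left out of the totals, but with column totals miR-200c was 1.46-fold above stomach and the other 4 stayed below. miR-203 and miR-205 were above both libraries under all 5 scalings. All 5 were high with column totals that include miR-143 and with totals that also leave out the muscle names, and 4 of 5 with the other 2 scalings.

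The miR-183 cluster, known from sensory and secretory cells, moved apart within itself. The strands of its leading members are given to show that they differ.
miR-183: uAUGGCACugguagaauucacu
miR-182: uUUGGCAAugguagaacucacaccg
Their hairpins lie on the minus strand of chromosome 6 with 3675 bases between them. miR-183 had 4075 RPM in oesophagus, against 14.9 RPM in heart, a median of 173 RPM and 3642 RPM in the library labelled uterus, and was highest in oesophagus by 1.12-fold (1.09–1.14). Lung, with 2750 RPM, came next. With median-of-ratios factors it was second of 14. miR-182 had 1068 RPM in oesophagus, against 28.8 RPM in heart, a median of 601 RPM and 5315 RPM in the library labelled uterus, and was seventh of 14. With median-of-ratios factors miR-182 stood at -0.01 (log2), just below its median. Reads of miR-183 over reads of miR-182, which no scaling changes, came to 3.81 (3.69–3.94) in oesophagus, against 0.165 to 0.689 in the other 13 libraries. In oesophagus miR-183 thus had more reads than miR-182, and in each of the other 13 fewer.

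Other ratios within a library also set oesophagus apart. miR-215 and miR-192, intestinal names that share their seed and all but a few bases, are written out because reads could be shared between them.
miR-215: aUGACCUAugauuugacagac
miR-192: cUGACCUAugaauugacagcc
miR-215 had 18309 RPM in oesophagus (74138 reads), against a lowest value of 35.2 RPM in pancreas, a median of 538 RPM and a highest of 365682 RPM in small intestine, and ranked after small intestine and the library labelled uterus. miR-192 had 1608 RPM in oesophagus, close to the median of 1514 RPM, and miR-194, which has copies beside both, had 82.7 RPM, against a median of 97.4 RPM. Reads of miR-215 over miR-192 were 11.4 (11.1–11.7) in oesophagus, against 0.00602 in kidney, a median of 0.446 and 5.14 in small intestine. The oesophagus ratio was the highest of the 14.

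let-7d, a member of the large let-7 family of differentiated cells, had 10777 RPM in oesophagus, against 978 RPM in heart, a median of 3976 RPM and 12554 RPM in spleen. The other 8 names of the let-7 list stood below their median, and let-7b, with 6670 RPM in oesophagus against 6821 to 89806 RPM elsewhere, was lowest there and called low. let-7f alone of these 8 turned to above its median, with column totals and with totals that also left out the 7 muscle names. The call of let-7b lay at the edge of the low rule, at -2.01 (log2). Of the other scalings only median-of-ratios factors kept it low and lowest. With column totals it stood at -1.56 and was 10th of 14. Reads of let-7d over let-7a came to 0.511 (0.506–0.517) in oesophagus, against 0.0309 to 0.206 in the other 13 libraries. How reads shared by let-7 members were counted is not given in the sources used here.

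Among the muscle names, miR-206 over miR-1 was 0.152 (0.152–0.153) in oesophagus and 8.15e-05 in heart, while cerebellum had 3.49 and liver 0.522. Spleen, with 0.149 (0.135–0.164), and brain, with 0.145 (0.139–0.152), were close to oesophagus, so this ratio was not particular to it. miR-133a over miR-1 was 0.000843 (0.000796–0.000891) in oesophagus and 0.00480 in heart. Only liver had a lower ratio, from 0 reads of miR-133a and 249 of miR-1. Its interval reaches up to 0.0149, so liver cannot be placed below oesophagus. The star arm over miR-133a was 0.483 (0.438–0.533) in oesophagus and 0.0399 in heart. It reached at most 0.121 among the 8 other libraries with 20 or more reads of the pair. For the squamous pair, miR-205 over miR-203 was 0.0462 (0.0449–0.0476) in oesophagus and 0.0479 in stomach, and 0.0859 in the library labelled uterus. Heart had 0.0419 (0.0246–0.0670). miR-205 over miR-203 was thus close in oesophagus, stomach and heart, with overlapping counting intervals. The squamous star arms differed between oesophagus and stomach beyond counting error. miR-203* over miR-203 was 0.00471 (0.00430–0.00516) in oesophagus and 0.00780 (0.00692–0.00876) in stomach. miR-205* over miR-205 was 0.0150 (0.0117–0.0189) in oesophagus and 0.00451 (0.00194–0.00890) in stomach. The muscle ratios differed between oesophagus and heart beyond counting error.

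**Figure D4:**
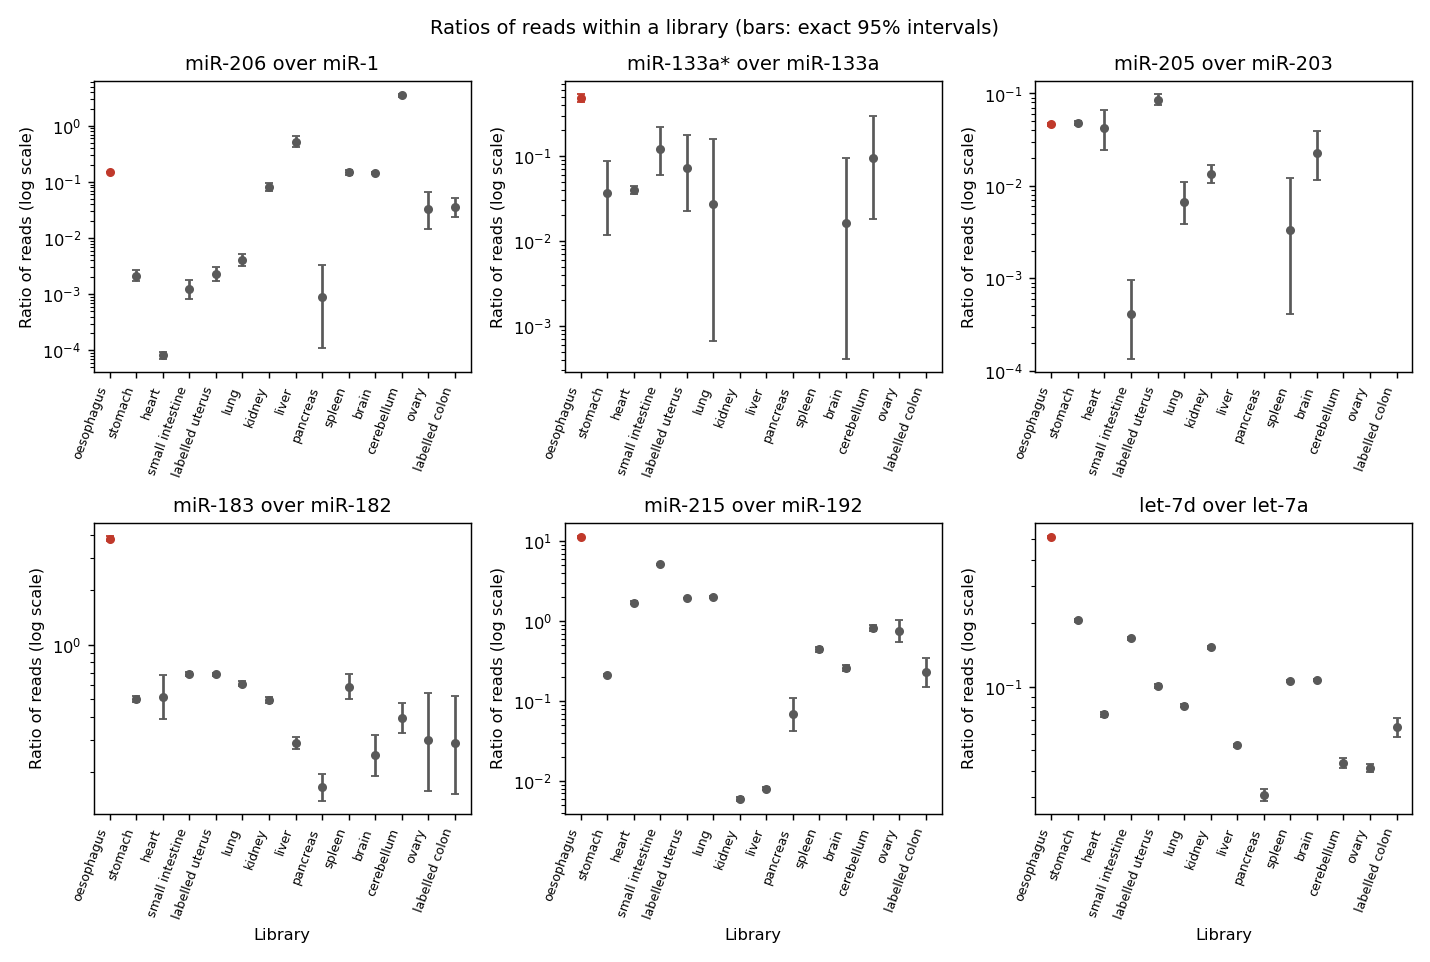
Each panel gives the ratio of the reads of 2 names within each library (y axis, log scale) for the 14 libraries (x axis), with oesophagus in red at the left and bars for exact 95% intervals. Libraries with under 20 reads of the pair or 0 reads of either name are not drawn; oesophagus is highest for miR-133a* over miR-133a, miR-183 over miR-182, miR-215 over miR-192 and let-7d over let-7a.

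miR-483 was highest in oesophagus. Its 2 arms are both printed, since the deposited name does not say which was counted.
miR-483-5p: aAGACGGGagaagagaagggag
miR-483-3p: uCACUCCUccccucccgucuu
The hairpin lies on the minus strand of chromosome 7, the 5p arm at chr7:142654968-142654989, in an intron of Igf2, the imprinted gene of a fetal growth factor. miR-483 had 159 RPM in oesophagus (644 reads), against 9.23 RPM (10 reads) in cerebellum, 2.20 RPM in heart and a median of 0.168 RPM, and was 17.2-fold (9.31–36.1) above cerebellum. Stomach had 0 reads. The library labelled colon also had 0 reads, which at its depth allows up to 34.7 RPM, so that oesophagus was at least 4.59-fold higher than that library. miR-675-3p, processed from the neighbouring imprinted RNA H19, had 7 reads in oesophagus and 0 in the other 13 libraries. Of the 8 names on this list of imprinted growth loci, 5 entered and 1 of these was high, against 14.4% of all names that entered. On the same list, miR-335-5p had 101 RPM in oesophagus and a median of 29.2 RPM elsewhere.

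Names of the Dlk1-Dio3 cluster, an imprinted locus of many miRNAs known from brain, muscle precursors and embryo, were described over the whole list. Of 47 listed members 43 are in the table, and 39 of these stood above the median of the others, a count that includes names that did not enter. In all 35 entered, and of these 14 were high and 0 low. Of all 457 names that entered, 303 stood above the median and 14.4% were high. Their median was 1.57 (log2), beside 0.41 for all names. Counting both arms of these hairpins, 20 of 56 entered names were high. miR-381 had 617 RPM in oesophagus, against a median of 17.3 RPM and 1748 RPM in cerebellum. miR-411 had 1359 RPM, against a median of 113 RPM and 3313 RPM in brain. miR-299 was the member highest in oesophagus, with 54.3 RPM, against 28.7 RPM in brain, though 1 read in the library labelled colon allows up to 64.4 RPM there. The summed level was 6741 RPM in oesophagus, against 592 RPM in heart, 7818 RPM in stomach, 50961 RPM in brain and 85115 RPM in cerebellum. With median-of-ratios factors 9 members were high, as were 42 of all names, and without the 5 most abundant names 24 members were, as were 106 of all names.

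A pair with 1 seed, miR-99a and miR-100, was highest in oesophagus under all 5 scalings.
miR-99a: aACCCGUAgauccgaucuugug
miR-100: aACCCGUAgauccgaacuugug
miR-100 had 1770 RPM in oesophagus, against 5.02 RPM in pancreas, a median of 357 RPM and 1258 RPM in lung. miR-99a had 817 RPM in oesophagus, against 8.37 RPM in pancreas, a median of 198 RPM and 730 RPM in stomach. Both leads were small, at 1.41-fold (1.35–1.47) and 1.12-fold (1.06–1.19). miR-99a and miR-100 are near-identical and may share reads, so they cannot be taken as separate. miR-125b-5p, transcribed with members of this family, had 2038 RPM in oesophagus and was second to cerebellum at 3420 RPM.

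Of the 263 entered names whose hairpins are in no list, 13 were high and 10 low, beside 14.4% and 3.5% of all names. miR-149 had 428 RPM in oesophagus, close to the 429 RPM of cerebellum and above its median of 32.3 RPM. miR-708 had 135 RPM in oesophagus, against a median of 17.1 RPM and 371 RPM in brain. Both arms of miR-338, a miRNA of myelinating cells, were high, with miR-338-3p at 111 RPM, against a median of 15.4 RPM and 586 RPM in brain. miR-140, known from cartilage, had 323 RPM, against a median of 77.2 RPM and 818 RPM in spleen. miR-676* was highest in oesophagus, with 55.1 RPM, against 36.6 RPM in stomach and 3 reads in the library labelled colon, which allow up to 101 RPM, and was second of 14 with median-of-ratios factors and without the 5 most abundant names. miR-103 was also highest, with 4024 RPM, against 3783 RPM in lung, but was not called high.

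Names linked to keratinocytes outside the squamous pair went in both directions. Of 7, 6 entered, and of these 2 were high and 2 low, against 14.4% and 3.5% of all names. With median-of-ratios factors 1 was high and 1 low, and with column totals 2 were high and 1 low. miR-210, a miRNA induced by low oxygen, had 66.2 RPM in oesophagus, against 41.0 RPM in stomach and a median of 7.26 RPM, and was highest in oesophagus under all 5 scalings. miR-34a, a target of p53, had 5 reads (1.23 RPM), against a median of 11.5 RPM. miR-184 had 13.3 RPM, against 37.0 RPM in the library labelled uterus, a median of 95.6 RPM and 1132 RPM in brain, and was lowest in oesophagus. Of 9 names linked to myogenesis outside the muscle list, 1 was high (miR-486), and 0 to 2 were under the other scalings. miR-378, at 237451 RPM, stood near its median of 211635 RPM and below heart at 453310 RPM. miR-486 and miR-3107 are copies of 1 miRNA and had 1304 and 1263 reads, so they cannot be taken as separate.

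The other low names included miR-30 members, which are known from kidney and heart. miR-30a had 1980 RPM in oesophagus, against 2621 RPM as the lowest of the others, a median of 8944 RPM and 61446 RPM in lung, and miR-30e had 900 RPM, against a median of 5217 RPM. miR-146a, a miRNA of the inflammatory response, had 218 RPM, against a median of 1050 RPM. miR-744 had 16.1 RPM and miR-423-5p 33.1 RPM, against medians of 115 and 173 RPM. miR-672 (1 read), miR-139-3p (2 reads), miR-216a (6 reads), miR-375 (11 reads), miR-326 (14 reads), miR-30c-1*, miR-542-3p and miR-130b completed the list of 16 with the names given above.

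Markers of other cells were read for the whole lists. Multiciliated names, which would mark tracheal tissue, summed to 255 RPM in oesophagus, against 14498 RPM in lung, almost all from miR-34c, and miR-449a, miR-449b and miR-449c had 0 reads. Pancreatic names summed to 14.3 RPM in oesophagus, against 0 to 4026 RPM elsewhere. Of the 4, 2 were low, beside 3.5% of all names, but 1 was with median-of-ratios factors and 0 with column totals and without the muscle names. Hepatocyte miR-122 had 94.3 RPM in oesophagus, near its median of 87.7 RPM, and miR-122* had 0 reads. The 3 names linked to brown fat summed to 60.8 RPM in oesophagus, against 0 to 65.7 RPM elsewhere. None was high, but all 3 were with column totals and with totals that also leave out the muscle names, as were 97 and 117 of all names. Of the erythroid names 2 of 3 were high, beside 14.4% of all names, with miR-451 at 503 RPM in oesophagus, against a median of 90.3 RPM and 1365 RPM in spleen. The second was miR-486, also on the myogenesis list, with 322 RPM in oesophagus, against 1072 RPM in heart, and miR-144 had 25.4 RPM in oesophagus, near its median of 20.7 RPM. With median-of-ratios factors only miR-451 of these 3 was high. Leukocyte names summed to 960 RPM, against 161 to 43492 RPM, and none was high. Endothelial miR-126-3p had 19041 RPM in oesophagus, after lung and stomach, against a median of 5864 RPM. The part that such cells had in the results above was not tested.

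The smooth muscle, mesenchymal, positional, dividing-cell and neural lists are read against the 14.4% of all names that were high. Counts above the median are read against the 303 of 457 names that stood above theirs. The smooth muscle name miR-145 had 928 RPM in oesophagus, against a median of 239 RPM and 4709 RPM in stomach, and miR-143 stood at 296934 RPM on the same total, against a median of 1074330 RPM. None of the 4 smooth muscle names was high, though 1 to 3 were under the other scalings. The 4 mesenchymal names stood above their medians and none was high, while 3 were high with column totals and with totals that also leave out the muscle names, and with median-of-ratios factors 3 of 4 stood above. Among the 5 Hox cluster names, which reflect position along the body, miR-10b was high with 3882 RPM, against a median of 276 RPM and 13711 RPM in kidney. All 5 stood above their medians, and 2 to 4 were high under the other scalings. Of the 9 names of the dividing-cell clusters, miR-20a at 664 RPM and miR-92a at 480 RPM were high, and 1 to 3 were under the other scalings. In all 7 stood above their medians, a share near that of all names, and miR-19b, with 3.21 RPM against a median of 15.4 RPM, stood below. Of the 9 neural names miR-9 alone was high, at 405 RPM in oesophagus, against 66484 RPM in brain, and 0 to 3 were under the other scalings.

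**Figure D5:**
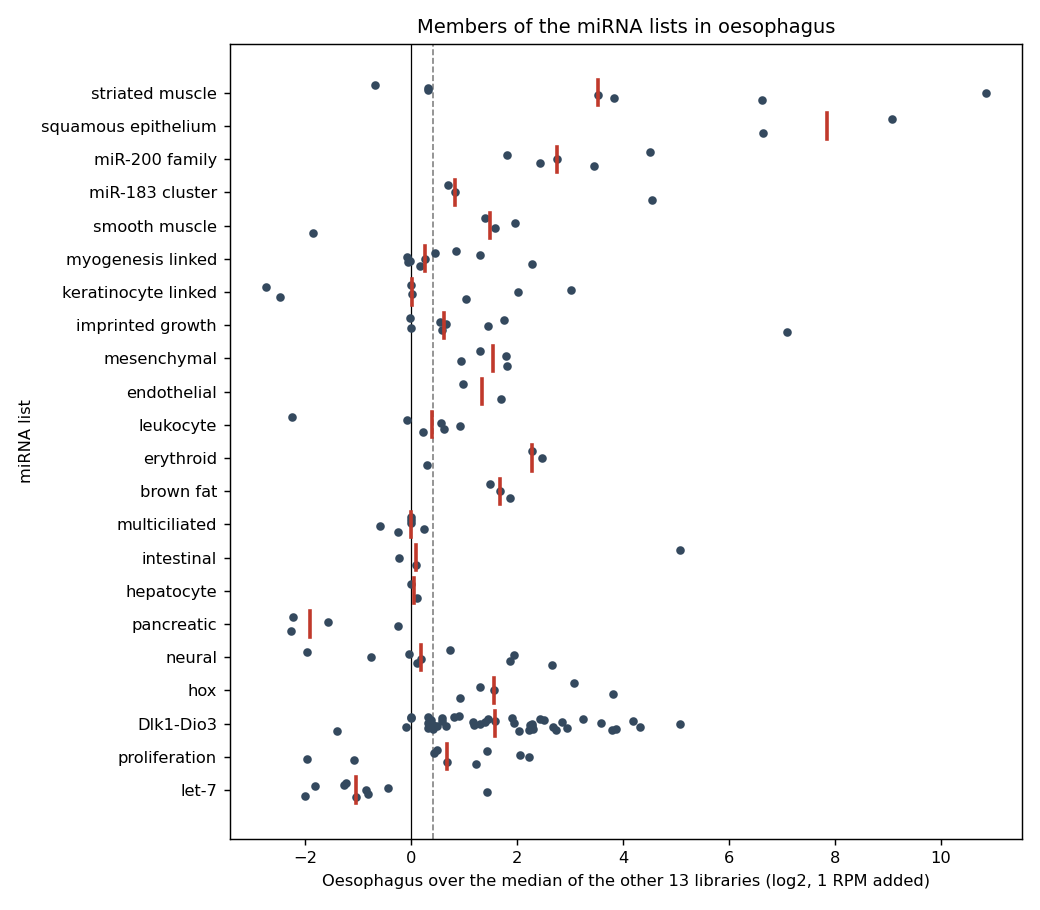
Each point is 1 list member, placed by its log2 ratio of oesophagus over the median of the other 13 libraries with 1 RPM added (x axis), and each row is a list with its median as a red bar. The dashed line marks the median of all 457 names at 0.41; the striated muscle and squamous lists reach farthest to the right, and the pancreatic and let-7 lists have medians below 0.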

How the data were processed

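The authors deposited 1 table of raw read counts, 1 row per miRNA and 1 column for each of 14 tissues, with no scaling applied. Per the labels' protocols, total RNA was extracted with Trizol, pooled over animals (the labels give both 5 and 10 mice) and made into libraries by the Illumina procedure. Trimming, aligner, miRNA release, build and the counting of reads that match several names are steps not given in the sources used here.

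Counts were divided by the library's total without miR-143 and multiplied by 1000000. A name entered when at least 1 library had 10 RPM of it. With 1 library per tissue, rules of size replaced tests, at 4-fold with 1 RPM added to both sides. Intervals are 95% exact Poisson for levels, Clopper-Pearson for shares and conditional binomial for folds and ratios, and a count of 0 was given a limit of 3 reads. The high and low rules were tried on simulated data with planted changes well above 4-fold, scaled by the true totals. That trial left out differences in composition between libraries, so it cannot speak for the choice of scaling. Named miRNAs were taken from the members of 22 lists (155 distinct names, 151 of them in the table) with their other arms, the 15 most abundant, the 15 highest and 12 lowest ratios to the median, names 2-fold above every other library, and up to 10 per direction against heart and stomach. miR-409-5p, the 7 names above both heart and stomach and the 9 above stomach only, miR-99a, miR-100, miR-103, the high names in no list, the remaining low names, and the ratios other than those of muscle names, squamous names and arms were named after their values were seen. Members and lists were chosen with earlier results of these data known. Host genes came from GENCODE M21 (GRCm38). Work was done in Python 3.11.15 with pandas 2.3.3, NumPy 2.4.6 and SciPy 1.17.1.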

Additional observations from a re-analysis of the deposited data

How the results depend on the processing

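No paired analysis was possible because each tissue has 1 library. In all, 4 scalings, other minimum levels, folds and pseudocounts, and left-out libraries were tried, and the scaling without the 7 muscle names was chosen after seeing the data. No called name tried under them changed direction. The entry rule was applied anew under each. The striated muscle and squamous lists kept 3 or 4 of 7 and 2 of 2 members high throughout. Both squamous names, and miR-206 of the muscle list, are markers of the label. Counts moved, from 66 high, 16 low and 3 highest by 2-fold in oesophagus, 22 higher and 53 lower than stomach, and 134 higher and 15 lower than heart. With column totals 1 was low, 9 highest, 57 higher and 8 lower than stomach, and 97 high. With median-of-ratios factors 42 were high, 5 highest, 26 lower than stomach, 43 higher and 42 lower than heart. With totals without the 5 most abundant names 106 were high, 10 highest, 41 higher than stomach and 52 lower than heart. Without the muscle names 117 were high, 5 low, 9 highest, 39 higher and 25 lower than stomach. With 10 RPM added 39 were high, 7 low, 12 higher and 24 lower than stomach, 81 higher and 7 lower than heart. At 100 RPM 36 were high, 6 low, 11 higher and 21 lower than stomach, 72 higher and 6 lower than heart. At 8-fold 31 were high, 1 low, 8 higher and 17 lower than stomach, 74 higher and 5 lower than heart. Without the libraries labelled colon and uterus 10 were low. Leaving out 1 library at a time gave 51 to 77 high, 11 to 17 low, and 3 to 7 highest by 2-fold, with 7 without stomach (adding miR-203, miR-203*, miR-205 and miR-210) and 6 without heart (adding miR-1, miR-133a* and miR-133b). The cause of these moves was not tested. The median of all names over the others was 0.41 (log2), and 1.03 with column totals, 0.07 with median-of-ratios factors, 0.60 without the 5 most abundant and 1.01 without the muscle names. Depth limits the lower bounds in the libraries labelled colon, ovary and pancreas, where 0 reads allow up to 34.7, 10.3 and 5.02 RPM.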
